A study of Mus musculus with 12 samples.

Results

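Solute carrier genes encode the membrane proteins that move ions, sugars, amino acids, nucleotides, vitamins and metals across the plasma membrane and the membranes of organelles. The members described here are the 119 gene symbols with a solute carrier name (Slc, a family number and a member number) that were listed at 5 FPKM or more in at least 3 of the 12 libraries. They are 119 of 372 symbols with such a name, and of 24259 symbols in the table. FPKM counts sequenced fragments scaled by the length of the transcript and by the depth of the library, so levels can be set side by side between genes of different length. Of the 253 symbols below the threshold, 84 were listed at 0 in all 12 libraries. The members were thus chosen by their FPKM in these same 12 libraries, so levels are given as a description and without a test. Just inside the threshold stood *Slc30a1*, *Slc29a2* and *Slc25a28*, whose third-highest FPKM was 5.12, 5.33 and 5.50. Just outside stood *Slc47a2*, *Slc12a5* and *Slc25a40*, at 4.90, 4.85 and 4.75.

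Not every member is a carrier. *Slc9a3r1* and *Slc9a3r2* encode scaffold proteins that bind sodium-proton exchangers, and *Slc4a1ap* and *Slc7a6os* encode proteins named after a carrier partner or neighbour. These 4 genes were kept as members but are no carriers, which left 115 carriers. Of the 119 members, 60 reached 5 FPKM in all 12 libraries and 7 in exactly 3. The libraries at the threshold were all KO for 6 members (*Slc30a2*, *Slc38a10*, *Slc26a5*, *Slc6a20a*, *Slc39a1* and *Slc25a30*) and all WT for another 6 (*Slc12a8*, *Slc9a3r2*, *Slc29a2*, *Slc7a7*, *Slc2a9* and *Slc30a1*). For *Slc6a7* and *Slc25a30* they were all polysome libraries, and for *Slc6a20a* all RNP libraries. Such a member had to differ on that factor, so its values are given without a test of that factor.

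A germinal vesicle (GV)-stage oocyte is a fully grown, transcriptionally quiet cell that lives on stored mRNA and on what reaches it from the follicle. Oocytes take up pyruvate through monocarboxylate carriers in preference to glucose, and receive several amino acids from the surrounding cumulus cells. Zinc enters through ZIP carriers during maturation and is later released at fertilization, and glycine uptake helps the egg to control its volume. In mitochondria, carriers of the Slc25 family exchange ADP for ATP and move phosphate, amino acids and cofactors across the inner membrane.

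RNA came from GV-stage fully-grown oocytes of wild-type (WT) mice and of mice homozygous for *Lsm14b* tm1a(KOMP)Mbp (KO), both on a C57BL/6J background, primed at 3 weeks of age with 5 IU PMSG for 46 h. The KO allele is a reporter-tagged insertion present in every cell of the animal, so the oocytes had grown in KO follicles, and it is a single allele. Lysates of 1500 pooled oocytes in cycloheximide, which holds ribosomes on mRNA, were run on sucrose gradients, and fractions 1 to 10 were pooled as RNP and fractions 11 to 28 as polysomes. There were 3 libraries of each pool and genotype, and nothing in the sources says that they came from separate groups of animals, so p-values measure the spread between these libraries, which may be technical.

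The targeted gene followed the labels, with *Lsm14b* at 27.4 to 34.6 FPKM in WT RNP, 11.3 to 15.3 in WT polysomes and 0 to 0.893 in the 6 KO libraries. The spacing of low FPKM values put the libraries at about 4620000 to 7840000 fragments, lowest in KO polysome 3 and KO polysome 2. The members together made up 0.737 to 1.03% of the summed FPKM of a library, with the lowest share in KO polysome 2, where the 10 highest genes of all took 34.7% of the sum against 11.6 to 14.7% elsewhere. All 10 oocyte markers were present, and their summed FPKM was 5883 to 6190 in WT RNP, 8129 to 8394 in KO RNP, 22765 to 24536 in WT polysomes and 27930 to 30493 in KO polysomes. Of 15 granulosa and cumulus markers, 2 (*Lhcgr* and *Star*) were at 0 in every library, and the sum ran from 31.3 to 37.3 in WT RNP, 42.7 to 66.6 in KO RNP, 27.9 to 76.3 in WT polysomes and 86.1 to 110.1 in KO polysomes. The theca and stroma markers summed to 0 to 2.58. Of 10 endothelial and blood markers, 6 were at 0 throughout. That list still summed to 13.9 to 42.1 FPKM, mostly from *Pecam1*, which was at 13.2 to 41.0. In bulk RNA, fewer cells of a type and less RNA per cell cannot be told apart, and the part of these differences in the results below was not tested.

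Levels varied over more than 2 orders of magnitude. The sugar carrier relative *Slc45a3* (prostein) stood far above all other members, with a mean over 12 libraries of 995 FPKM, which ranked 55 among all genes and was 21.3% of the summed member means. The vesicular zinc carrier *Slc30a3* (ZnT3) followed at 359. Then came *Slc35a4*, a relative of the nucleotide sugar carriers (165), the zinc importer *Slc39a6* (ZIP6, 155), the ADP/ATP carrier *Slc25a5* (ANT2, 140.1) and the glycine carrier *Slc6a9* (GLYT1, 139.6). The peroxisomal carrier *Slc25a17* (121), the choline carrier-like *Slc44a2* (115), the amino acid carrier heavy chain *Slc3a2* (107) and the germ cell ADP/ATP carrier *Slc25a31* (ANT4, 100.5) closed the 10 highest, which together held 51.4% of the summed member means. Below them 38 members had means of 20 to 100 FPKM, 24 of 10 to 20 and 47 under 10. The median of the member means was 13.5 FPKM, and that of all 7698 genes at the same threshold was 16.8.

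Neighbours in this order were often not separated by their spread. From *Slc35a4* to *Slc6a9* the libraries overlapped widely, as *Slc35a4* alone ran from 92.5 to 261 FPKM, whereas the 12 libraries of *Slc30a3* (253 to 404) lay below all those of *Slc45a3* (725 to 1342). The median coefficient of variation between the 3 libraries of a group was 39.0% over members in WT polysomes, 26.6% in KO polysomes, 25.1% in WT RNP and 17.5% in KO RNP. The spread was thus widest in WT polysomes and narrowest in KO RNP.

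**Figure D1:**
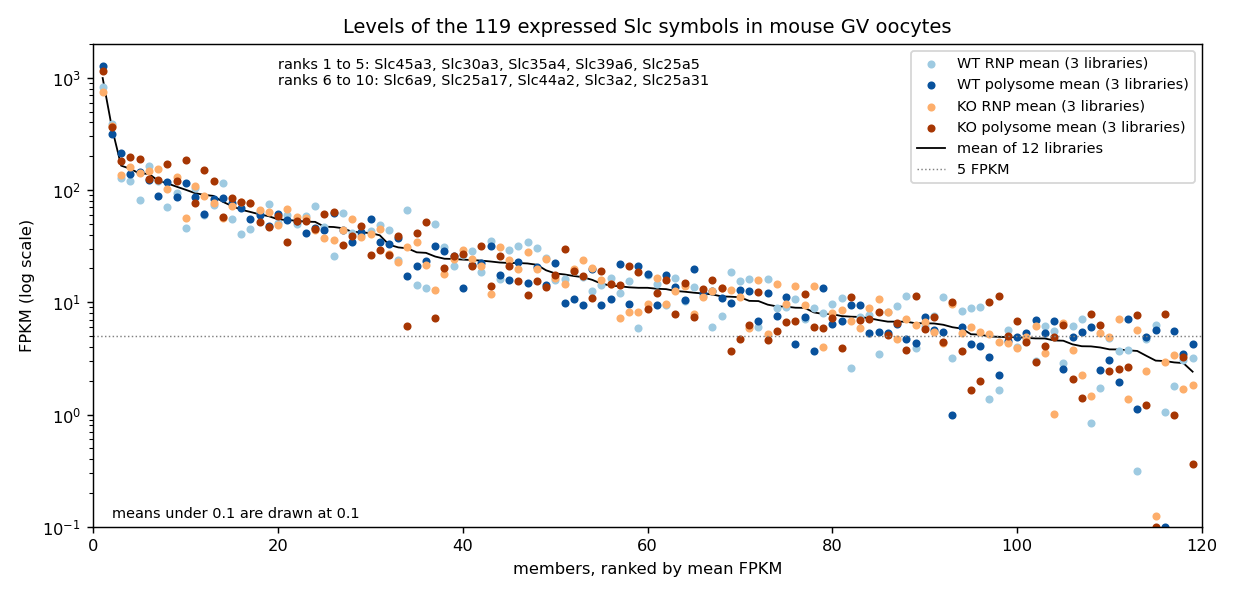
Mean FPKM of the 119 members in each group of 3 libraries (points, log axis) against their rank by the mean of 12 libraries (line), with the 5 FPKM threshold dotted. *Slc45a3* stands alone at the top, 10 members exceed 100 FPKM, and the group means scatter more widely around the line at its low end.

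By role, the largest group was the 25 Slc25 carriers, with a median of member means of 23.1 FPKM and a range of 2.91 to 140.1. They were followed by 14 amino acid and peptide carriers (median 11.8), 13 nucleotide sugar carriers and relatives of the Slc35 family (22.4), 12 zinc and copper carriers (12.5), 10 ion exchangers (7.62) and 8 members of the Slc6 and Slc18 families (7.33). The other groups were 7 sugar carriers, 6 organic ion carriers, 5 vitamin and cofactor carriers and 4 carriers of iron and magnesium. There were also 4 cation-chloride cotransporters, 3 members of the monocarboxylate family Slc16, 3 phosphate carriers and 1 nucleoside carrier. Groups were set by family number. A list of 25 carriers known from work on oocytes and early embryos held 13 members. Its other 12 genes were low, with *Slc12a2* reaching 6.32 FPKM at most, *Slc16a3* 3.87, and *Slc3a1*, *Slc38a3*, *Slc8a1* and *Slc6a8* listed at 0 in every library. *Slc2a3* and *Slc16a7*, further glucose and monocarboxylate carriers, reached 0.619 and 1.06 FPKM.

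Reads of some members could not be assigned with certainty. Exons of 37 members shared bases with another gene on either strand, over 20% of exonic bases for 6 of them, among which were *Slc6a9* (30.2%, with *B4galt2*, *Ccdc24* and *Gm17114*), *Slc39a7* (80.7%), *Slc25a35* (31.3%), *Slc9a4* (21.3%) and *Slc6a20b* (21.1%). No source used here says that strand was used in counting. The similar ADP/ATP carriers *Slc25a4*, *Slc25a5* and *Slc25a31*, and the adjacent copies *Slc6a20a* and *Slc6a20b*, may share reads. The median transcript length was 3330 bases for the members and 2923 for all genes at the threshold, and the median GC content 51.8% and 49.6%. The members lay on 20 chromosomes, with 4 on the X.

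KO and WT oocytes were compared within each pool to ask which carrier mRNAs changed in level among stored and among polysome-bound mRNA. In RNP, 20 of 118 members tested passed the threshold, 11 higher and 9 lower in KO. Among all genes 20.7% passed, 10.5% higher and 10.2% lower, and the members' share was 16.9%. Leaving out the members whose libraries at the threshold were of 1 genotype, it was 18 of 107, with 9 in each direction. At an unadjusted p under 0.05 there were 43 members, 36.4% of those tested, against 34.1% of all genes. The test was limma on log2(FPKM + 1) with Benjamini-Hochberg adjustment over all genes, and each change below is a difference on that scale with its standard error, which understates the change of low genes. Many called members below were named for a lack of overlap between their groups, so that lack describes them and adds no support. The share of all genes without overlap was not counted. Without KO RNP 1 the count was 13, and without KO RNP 2 it was 12. With the libraries rescaled to the same median it was 26, and the split moved from 11 higher and 9 lower to 17 and 9. The granulosa and cumulus marker sum was higher in every KO RNP library than in every WT RNP library.

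The carriers of glucose, *Slc2a1*, and of pyruvate and lactate, *Slc16a1*, fell in KO RNP. *Slc2a1* encodes the glucose carrier GLUT1 and lies at chr4:119108711-119137983 (GRCm38, plus strand). It was listed at 63.2, 59.9 and 76.0 FPKM in the WT RNP libraries and at 27.5, 40.2 and 26.1 in KO RNP, a mean 2.12-fold higher in WT, and fell by 1.08 ± 0.20 (limma, adjusted p = 0.00513). The groups did not overlap. In polysomes the values were 24.3, 11.7 and 15.6 in WT and 5.63, 6.76 and 6.20 in KO, also without overlap, and the difference of -1.28 ± 0.37 missed the threshold (limma, adjusted p = 0.0613). *Slc16a1*, the pyruvate and lactate carrier MCT1, had 11.9, 22.7 and 14.3 FPKM in WT RNP and 5.14, 6.12 and 6.53 in KO RNP, so that every KO library lay below every WT library. It fell by 1.27 ± 0.29 (limma, adjusted p = 0.0151), a call that was lost without KO RNP 1 (adjusted p = 0.0563). Its other family members in the set, *Slc16a13* and *Slc16a10*, had RNP means of 31.3 and 13.5 FPKM in WT and 17.9 and 7.84 in KO, and did not pass.

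Of the 12 zinc and copper carriers, 9 reached 5 FPKM in both genotypes and were thus free to differ in either direction. Of these 2 passed in RNP, both lower in KO, beside 20.7% of all genes that passed in either direction. *Slc39a10*, the zinc importer ZIP10 (chr1:46807544-46892852, minus strand), was at 90.2, 119 and 139 FPKM in WT RNP and 54.7, 59.8 and 54.3 in KO RNP. The groups did not overlap, the WT mean was 2.06 times the KO mean, and the gene fell by 1.01 ± 0.17 (limma, adjusted p = 0.00317). In polysomes it had 81.4, 91.9 and 79.0 FPKM in WT and 54.1, 59.7 and 60.3 in KO, again without overlap, with a difference of -0.53 ± 0.16 that missed the threshold (limma, adjusted p = 0.0719). *Slc39a6*, which encodes its relative ZIP6, differed in the other direction, short of the threshold. It was listed at 113, 139 and 111 in WT RNP and 137, 175 and 168 in KO RNP, and at 135, 165 and 118 in WT polysomes and 180.4, 194 and 218 in KO polysomes, with differences of 0.39 ± 0.14 and 0.51 ± 0.16 (limma, adjusted p = 0.0715 and 0.0804). The RNP ranges overlapped and the polysome ranges did not. *Slc30a5*, a zinc carrier of the secretory pathway, also fell in RNP, from 10.3, 13.5 and 9.51 to 3.83, 3.42 and 5.65 FPKM, by 1.20 ± 0.30 (limma, adjusted p = 0.0202). That call was lost without WT RNP 2, KO RNP 1 or KO RNP 2 (adjusted p = 0.0531 to 0.077).

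Members of the same group at the threshold in KO libraries alone are given by their values. *Slc39a1*, the zinc importer ZIP1, was at 0.442, 0.277 and 0.216 FPKM in WT RNP, 0.228, 0.219 and 2.89 in WT polysomes, 5.12, 5.90 and 5.95 in KO RNP and 10.1, 5.89 and 7.01 in KO polysomes. *Slc30a2*, the zinc exporter ZnT2, was at 3.11, 3.78 and 2.74 in WT RNP, 1.39, 0.149 and 1.45 in WT polysomes, 8.55, 12.6 and 8.08 in KO RNP and 9.96, 10.1 and 10.0 in KO polysomes. For both genes every KO library was higher than every WT library of the same pool, which the threshold favoured. *Slc30a3*, the most abundant zinc carrier, had means of 385 FPKM in WT RNP, 374 in KO RNP, 313 in WT polysomes and 363 in KO polysomes, and its differences between KO and WT were -0.04 ± 0.09 in RNP and 0.23 ± 0.14 in polysomes.

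Carriers of the Golgi and of sulphate moved in different directions. *Slc35b3* brings the sulphate donor PAPS into the Golgi and lies at chr13:38932136-38960875 (minus strand). It had the lowest KO-to-WT change of all members tested in each pool. It was at 39.1, 52.6 and 58.6 FPKM in WT RNP and 17.0, 8.94 and 12.7 in KO RNP, and at 28.2, 29.4 and 38.3 in WT polysomes and 10.7, 5.09 and 6.14 in KO polysomes, with no overlap in either pool. It fell by 1.90 ± 0.26 in RNP and by 2.03 ± 0.34 in polysomes (limma, adjusted p = 0.00127 and 0.0096), calls that held under every alternative run. The group means in WT were 3.89 and 4.38 times those in KO. *Slc35b2*, the other PAPS carrier, did not pass, with means of 15.9 and 16.6 FPKM in WT and KO RNP and 22.3 and 17.4 in WT and KO polysomes. *Slc26a2*, which carries sulphate into the cell, rose in RNP from 14.8, 8.59 and 19.0 to 36.2, 35.2 and 32.9 FPKM, by 1.31 ± 0.27 (limma, adjusted p = 0.00952). All KO values were above all WT values. In polysomes 1 WT library was far below the other libraries (28.5, 6.01 and 28.2 in WT, 36.7, 48.2 and 40.1 in KO), the genotypes did not overlap, and the difference of 1.22 ± 0.52 missed the threshold (limma, adjusted p = 0.174).

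Further Slc35 members passed in RNP. *Slc35a5*, a nucleotide sugar carrier relative, fell from 11.5, 18.2 and 18.3 to 5.57, 5.20 and 4.88 FPKM, by 1.43 ± 0.27 (limma, adjusted p = 0.00678). *Slc35b4*, a carrier of UDP-xylose and UDP-N-acetylglucosamine, rose from 48.5, 32.5 and 42.0 to 73.8, 84.3 and 77.5, by 0.94 ± 0.17 (limma, adjusted p = 0.00504). In both cases the 3 KO libraries lay outside the WT range. In polysomes *Slc35b4* had 45.6, 84.6 and 77.2 FPKM in WT and 71.7, 64.5 and 99.5 in KO, which overlapped. *Slc35a4*, the most abundant of the family, had KO-to-WT differences of 0.15 ± 0.21 in RNP and -0.21 ± 0.19 in polysomes and did not pass in either.

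Of the 25 Slc25 members, 24 were free to differ in RNP. Of these 3 rose and 2 fell, beside 20.7% of all genes past the threshold. *Slc25a15*, the ornithine carrier of the urea cycle, was at 60.5, 58.3 and 61.9 FPKM in WT RNP and 84.3, 88.9 and 91.0 in KO RNP, a rise of 0.54 ± 0.12 (limma, adjusted p = 0.0116). *Slc25a5*, the ADP/ATP carrier ANT2, rose from 74.9, 87.2 and 84.7 to 125, 179 and 124, by 0.77 ± 0.16 (limma, adjusted p = 0.00957). *Slc25a39*, the mitochondrial glutathione carrier, rose from 8.23, 6.01 and 4.02 to 12.6, 15.1 and 19.3, by 1.26 ± 0.31 (limma, adjusted p = 0.0188). None of these 3 overlapped between genotypes, which the choice of named genes favoured. The call of *Slc25a15* was lost without KO RNP 2 or KO RNP 3 (adjusted p = 0.052 to 0.0559), and that of *Slc25a39* without KO RNP 2 or KO RNP 3 (adjusted p = 0.0625 to 0.0841). *Slc25a38*, which brings glycine into mitochondria for haem synthesis, fell from 21.7, 55.6 and 27.4 to 9.36, 13.1 and 13.0 FPKM, by 1.39 ± 0.33 (limma, adjusted p = 0.0174), a call lost with no filter on low values or without KO RNP 1 (adjusted p = 0.06 to 0.0628). *Slc25a48*, a less studied mitochondrial carrier, fell from 82.3, 71.0 and 64.9 to 43.7, 42.5 and 45.2, by 0.71 ± 0.14 (limma, adjusted p = 0.00793), in every alternative run. The other ADP/ATP carriers did not pass in RNP, with differences of 0.29 ± 0.15 for *Slc25a31* and 0.37 ± 0.20 for *Slc25a4*.

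Further members past the threshold in RNP belonged to other role groups. *Slc10a6*, a carrier of sulphated steroids, rose from 50.3, 40.4 and 45.4 to 70.2, 90.0 and 70.4 FPKM, by 0.74 ± 0.16 (limma, adjusted p = 0.0101), under every alternative run. *Slc3a2*, the heavy chain that partners amino acid carriers, rose from 84.0, 104 and 91.7 to 135, 133 and 120.3, by 0.47 ± 0.12 (limma, adjusted p = 0.0229). *Slc44a2* rose from 62.0, 68.9 and 80.8 to 97.2, 101 and 106, by 0.53 ± 0.13 (limma, adjusted p = 0.0216). The call of *Slc3a2* was lost without WT RNP 1, KO RNP 1 or KO RNP 2 (adjusted p = 0.0571 to 0.0944), and that of *Slc44a2* without WT RNP 1, KO RNP 1, KO RNP 2 or KO RNP 3 (adjusted p = 0.0529 to 0.0841). *Slc15a2*, the peptide carrier PEPT2, rose from the low values 6.50, 1.11 and 2.83 to 10.2, 10.7 and 11.0, by 1.56 ± 0.44 (limma, adjusted p = 0.0351), and lost its call with a pseudocount of 0.1, with no filter on low values, or without WT RNP 2, WT RNP 3, KO RNP 1, KO RNP 2 or KO RNP 3 (adjusted p = 0.0527 to 0.102). For each of these 4 genes, the 3 KO libraries lay outside the WT range.

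In polysomes 9 of 117 members passed, 8 higher and 1 lower in KO. Among all genes 10.4% passed, 5.64% higher and 4.73% lower, and the members' share was 7.69%. Of these 9, 4 were at the threshold in KO libraries alone. Among the 107 members free to differ in either direction 5 passed, 4 higher and 1 lower. The calls leaned on single libraries, as the count was 4 without KO polysome 1, 1 without KO polysome 2 and 2 without KO polysome 3, and without either of the last 2 no member passed as higher in KO. *Slc25a30* was no longer tested there, as only 2 libraries of the comparison were then left at 1 FPKM or more. At an unadjusted p under 0.05 there were 30 members, 25.6% of those tested, against 26.3% of all genes. The median change was 0.10 for the members and 0.10 for all genes. KO polysomes had the higher granulosa and cumulus marker sums given above, without overlap with WT polysomes, and the part of this in the polysome calls was not tested. The list did not move as a whole. *Inha* was at 0 to 9.58 FPKM in WT and 39.4 to 51.4 in KO polysomes, and *Fshr*, *Inhba* and *Gja1* were also higher in KO. *Cyp19a1* and *Kitl* differed in the other direction, by -0.54 and -0.11, short of the threshold.

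Of the 4 members free to differ that rose in KO polysomes, 2 encode mitochondrial carriers. *Slc25a15* went from 36.5, 89.0 and 59.1 FPKM in WT to 133, 164 and 159 in KO, a rise of 1.38 ± 0.29 (limma, adjusted p = 0.0215). *Slc25a3*, the mitochondrial phosphate carrier, went from 24.7, 15.9 and 29.4 to 57.9, 39.8 and 59.0, a rise of 1.15 ± 0.28 (limma, adjusted p = 0.0378). *Slc38a8*, a sodium-coupled carrier of neutral amino acids, went from 11.6, 7.50 and 10.6 to 21.6, 29.7 and 38.5, a rise of 1.49 ± 0.32 (limma, adjusted p = 0.0229). No KO library of these 3 genes overlapped a WT library. *Slc44a2*, whose protein resembles choline carriers, went from 112, 128 and 112 to 154, 173 and 181, a rise of 0.52 ± 0.14 close to the threshold (limma, adjusted p = 0.0473) that was lost in 9 of the 10 alternatives run. The call of *Slc25a15* was lost with no filter on low values, or without KO polysome 2 or KO polysome 3 (adjusted p = 0.0697 to 0.077), that of *Slc38a8* without KO polysome 2 or KO polysome 3 (adjusted p = 0.091 to 0.105) and that of *Slc44a2* with a pseudocount of 0.1, with no filter on low values, or without WT polysome 1, WT polysome 2, WT polysome 3, KO polysome 1, KO polysome 2 or KO polysome 3 (adjusted p = 0.0512 to 0.175). The call of *Slc25a3* was lost with no filter on low values, or without WT polysome 1, WT polysome 2, KO polysome 1, KO polysome 2 or KO polysome 3 (adjusted p = 0.0571 to 0.136). *Slc35b3*, described above, was the other of the 5.

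The 4 called members set by the threshold in KO libraries included *Slc39a1* and *Slc30a2*, given above. *Slc38a10*, another member of the neutral amino acid family, was at 4.54, 0 and 0.451 FPKM in WT RNP, 1.31, 3.93 and 1.49 in WT polysomes, 5.83, 4.82 and 2.64 in KO RNP and 10.6, 10.5 and 13.0 in KO polysomes. *Slc25a30*, a mitochondrial carrier of the kidney, was listed at 0, 3.17 and 0 in WT RNP, 0, 0 and 0.252 in WT polysomes, 3.84, 3.73 and 1.32 in KO RNP and 6.70, 7.85 and 9.07 in KO polysomes. Both had their 3 highest libraries in KO polysomes, and both owe their membership to those libraries. On the WT side, the urate and hexose carrier *Slc2a9* was at 4.72, 0.525 and 13.5 in WT RNP and 6.63, 0.902 and 9.53 in WT polysomes, and at no more than 0.331 in any KO library. It was too low to be tested in the polysome, RNP and KO pool comparisons, and the values of its WT libraries differed widely.

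**Figure D2:**
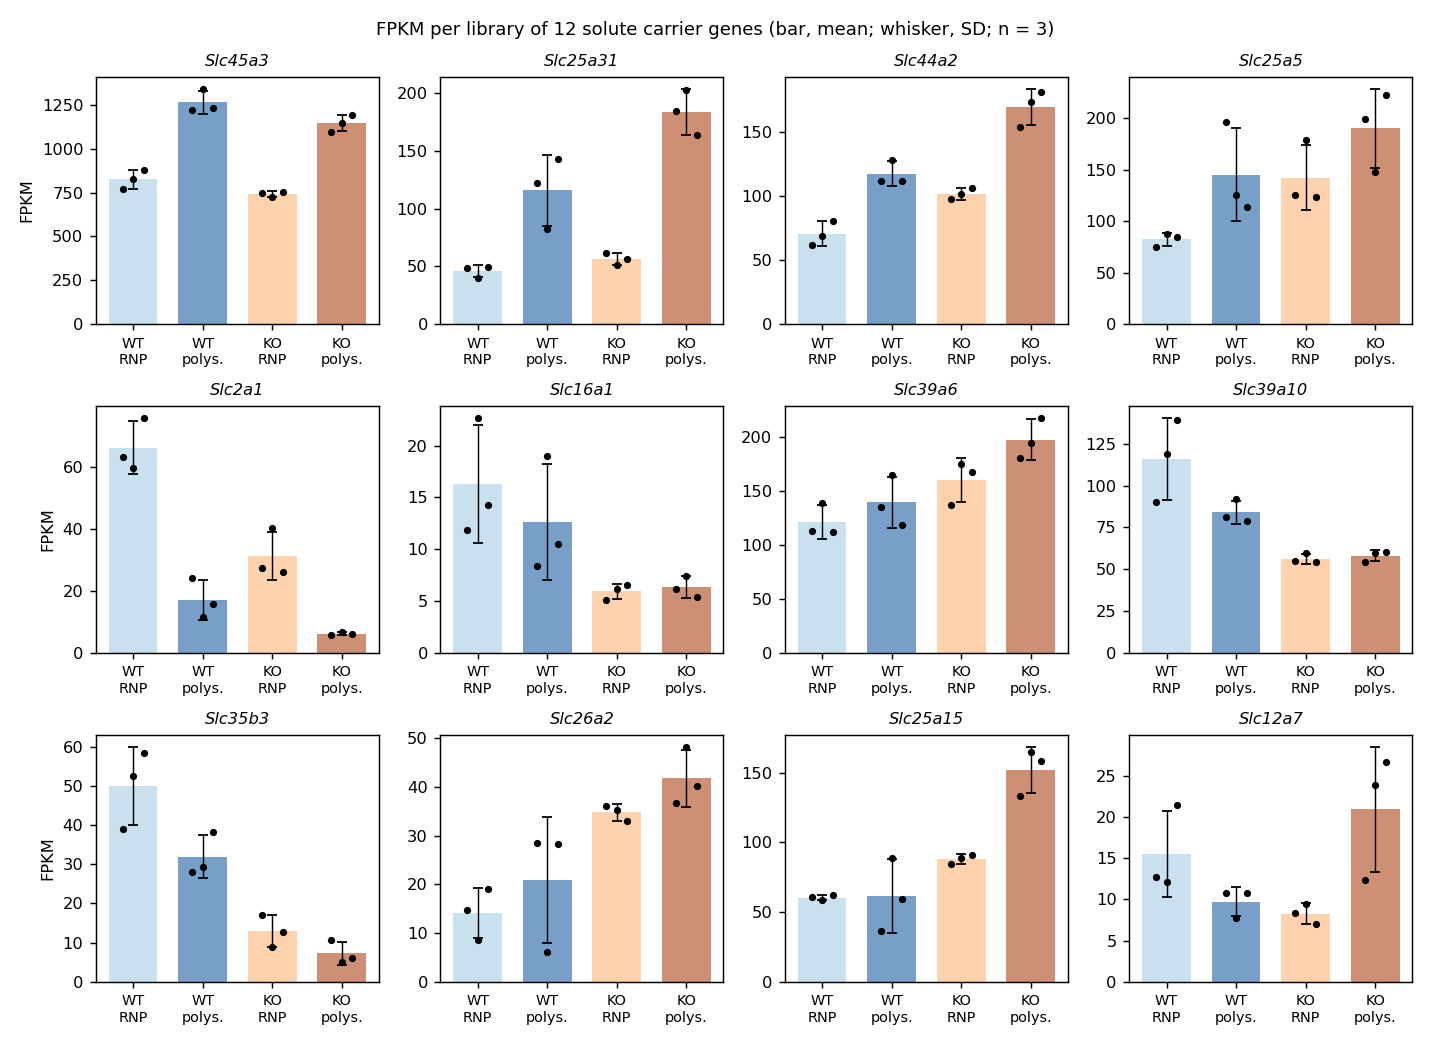
FPKM of 12 members in each of the 12 libraries (points) with the group mean (bar) and SD (whisker), n = 3 per group, on linear axes from 0. *Slc2a1* and *Slc35b3* are lowest in the KO libraries of each pool, *Slc25a31* and *Slc45a3* are higher in polysomes in each genotype, and *Slc12a7* in KO lies above WT in polysomes and below WT in RNP.

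The changes in the 2 pools, which share no library, can be set side by side. The pools are fractions of gradients and may come from the same oocytes, so their agreement is not an independent repeat. Of 24 members past the threshold in at least 1 pool, 5 passed in both: *Slc35b3* lower, and *Slc25a15*, *Slc44a2*, *Slc30a2* and *Slc39a1* higher in KO in each pool. The last 2 were at the threshold in KO libraries alone, so that 3 were free to differ. Of all genes 2461 passed in at least 1 pool and 585 (23.8%) in both, of which 580 changed in the same direction. Of 117 members tested in both pools, 80 (68.4%) had the same sign, and of all genes 70.1%. Passing in 1 pool alone does not show that the pools differed, and that difference was tested as the interaction below.

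**Figure D3:**
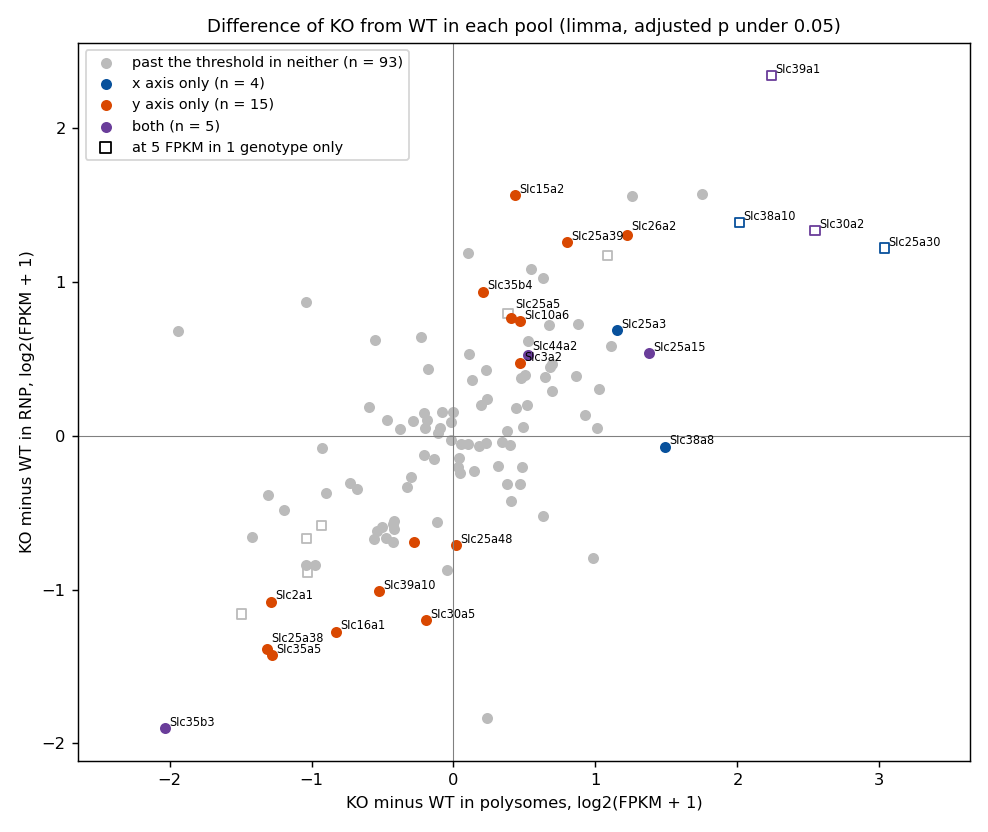
Difference of KO from WT in polysomes (x axis) and in RNP (y axis) for the 117 members tested in both, on the log2(FPKM + 1) scale, coloured by where the adjusted p passed, with open squares for members at 5 FPKM in 1 genotype only. *Slc35b3* lies at the lower left, and 4 of the 5 members past the threshold in both pools lie at the upper right.

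Counted by role, most members of every group did not pass in either pool. In polysomes 17 of 25 Slc25 members had a positive difference, with a median of 0.34. Of the 24 free to differ 2 passed, beside 10.4% of all genes, and *Slc25a30*, at the threshold in KO libraries alone, was the other past it. The 13 Slc35 members had a median of -0.42 with 10 below 0, and 1 passed, while the 14 amino acid carriers had a median of 0.39. Of the 12 of these free to differ 1 passed, and the other past the threshold, *Slc38a10*, was at the threshold of 5 FPKM in KO libraries alone. In RNP the medians of the same groups were 0.29, -0.13 and -0.06. All 3 members of the monocarboxylate group, which is the Slc16 family, were below 0 in both pools, with medians of -0.83 and -0.69. Of them 1 passed, in RNP, beside 20.7% of all genes. The group was set by family number, and *Slc16a10* in it need not carry monocarboxylates. *Slc5a12*, a sodium-coupled lactate carrier grouped by family number with the sugar carriers, was above 0 in both pools without passing. The medians of all genes were 0.10 in polysomes and 0.05 in RNP. Among the list of known oocyte carriers, 6 of 16 tested, 13 of them members, passed in RNP, 2 higher (*Slc3a2* and *Slc25a5*) and 4 lower (*Slc2a1*, *Slc16a1* and *Slc39a10* among them), beside 20.7% of all genes. In polysomes 0 of 14 passed by limma, beside 10.4% of all genes, and 5 had an unadjusted p under 0.05.

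Among vitamin and cofactor carriers, the ascorbate carrier *Slc23a2* was at means of 73.8 and 76.9 FPKM in WT and KO RNP and 83.8 and 120.2 in WT and KO polysomes, with a polysome difference of 0.49 ± 0.19 (limma, adjusted p = 0.15). The reduced folate carrier *Slc19a1* had 12.8, 13.3 and 11.8 FPKM in WT RNP and 22.0, 18.0 and 20.3 in KO RNP, which did not overlap, and a difference of 0.63 ± 0.20 close to the threshold (limma, adjusted p = 0.057). None of the 4 carriers of iron and magnesium passed between genotypes. The haem carrier *Slc48a1* was nearest, with 14.4, 8.86 and 24.7 in WT RNP and 35.9, 25.8 and 32.5 in KO RNP and a difference of 1.03 ± 0.33 (limma, adjusted p = 0.055). The magnesium exchanger *Slc41a1* had differences of -0.59 ± 0.34 in RNP and -0.51 ± 0.52 in polysomes.

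None of the 4 cation-chloride cotransporters passed either. *Slc12a9*, the most abundant of the group, had differences of 0.20 ± 0.28 in RNP and 0.52 ± 0.27 in polysomes. Among the phosphate carriers, *Slc20a1* (PiT1), *Slc20a2* (PiT2) and *Slc34a1* had RNP differences of 0.05 ± 0.23, -0.87 ± 0.35 and 0.15 ± 0.43. In the Slc6 group, the glycine carrier *Slc6a9* was at means of 164 and 147 FPKM in WT and KO RNP and 123 and 125 in WT and KO polysomes, and the taurine carrier *Slc6a6* at 28.5, 24.2, 21.4 and 21.1 in that order. The serotonin carrier *Slc6a4* and, among the amino acid carriers, *Slc7a8* (LAT2) had RNP differences of 0.20 ± 0.33 and -0.61 ± 0.45 and polysome differences of 0.19 ± 0.56 and -0.42 ± 0.71. *Slc6a15*, which carries branched-chain amino acids and proline, had 13.8, 13.0 and 11.9 FPKM in WT polysomes and 3.52, 4.34 and 6.37 in KO polysomes. These did not overlap, and the difference of -1.30 ± 0.37 missed the threshold (limma, adjusted p = 0.0577).

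Of the organic ion carriers, *Slc10a7* had the largest polysome difference, with 21.5, 18.4 and 14.1 FPKM in WT and 5.51, 7.04 and 13.5 in KO and a difference of -1.04 ± 0.39 (limma, adjusted p = 0.132). Its relative *Slc10a3* had differences of 0.43 ± 0.23 in RNP and 0.23 ± 0.35 in polysomes. The lysosomal peptide and histidine carrier *Slc15a4*, second among the amino acid group by level, had 0.16 ± 0.23 and -0.01 ± 0.20. The sodium-coupled lactate carrier *Slc5a12* had 0.58 ± 0.45 and 1.11 ± 0.51. The nucleoside carrier *Slc29a2* was at the threshold in WT libraries alone, at 0.948, 6.56 and 3.71 in WT RNP, 13.6, 5.33 and 2.54 in WT polysomes, 0.973, 2.64 and 0.532 in KO RNP and 4.14, 0.935 and 2.88 in KO polysomes, and its genotypes overlapped. Of the genes that are no carriers, *Slc7a6os*, *Slc4a1ap* and *Slc9a3r1* had means over 12 libraries of 60.7, 58.4 and 47.2 FPKM and did not pass between genotypes.

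**Figure D4:**
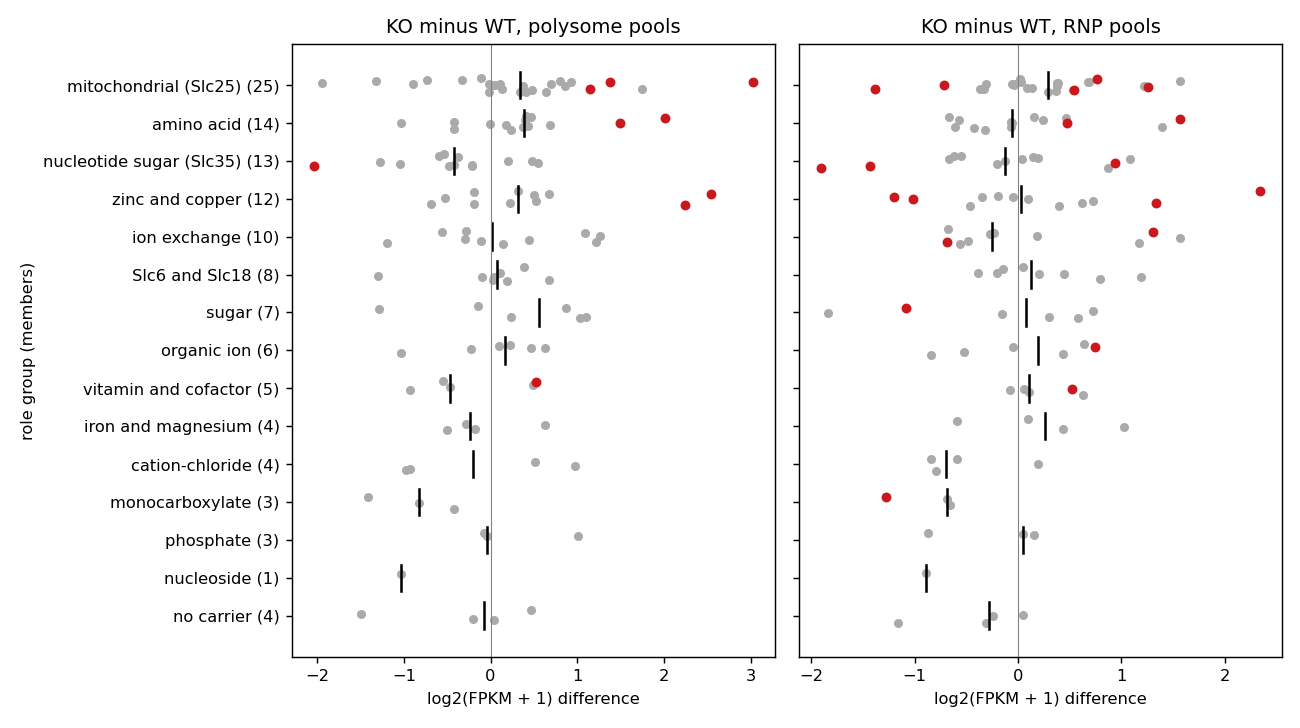
Difference of KO from WT by role group in polysomes (left) and RNP (right), on the log2(FPKM + 1) scale, with a point per member, the group median as a black bar and members past the adjusted p threshold in red. Points of most groups lie on both sides of 0, and the 3 members of the monocarboxylate group (Slc16 family) lie below it in both panels.

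The pools were compared within each genotype to ask which carrier mRNAs were richer in polysomes. FPKM is relative to each pool, so a difference is one of shares and not of amounts. In WT 8 of 117 members passed, 6 higher in polysomes and 2 higher in RNP. Among all genes 14.7% passed, 7.97% higher in polysomes and 6.72% higher in RNP, and the members' share was 6.84%. The count fell to 4 without WT RNP 1, and to 5 without WT RNP 2, without WT RNP 3 or without WT polysome 2. In KO 32 of 118 passed, 18 higher in polysomes and 14 higher in RNP, 27.1% against 29.2% of all genes (15.5% and 13.8%). That count was 18 without KO RNP 2 and 13 without KO RNP 3. Without the 3 members at the threshold in 1 pool alone it was 29 of 115. That number still counts *Slc38a10*, whose membership rests on its KO polysome values. The median standard error of the difference over members was 0.41 in WT and 0.29 in KO, and the part of this in the counts was not tested.

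Of 34 members called between the pools in at least 1 genotype, 6 were called in both, in the same direction each time. Of all genes 3265 were called in at least 1 genotype and 1022 (31.3%) in both, of which 1017 differed in the same direction. *Slc45a3* (chr1:131962967-131982969, plus strand, with 13.5% of its exonic bases shared with *Gm29103*) was at 769, 827 and 879.6 FPKM in WT RNP and 1219.6, 1342 and 1232 in WT polysomes. In KO it was at 746, 725 and 754 and 1098, 1149.8 and 1192. The ranges of the pools did not overlap, the polysome means were 1.53 and 1.55 times the RNP means, and the differences were 0.62 ± 0.09 in WT and 0.63 ± 0.07 in KO (limma, adjusted p = 0.00282 and 0.000201). *Slc25a31*, the ADP/ATP carrier of germ cells (chr3:40708855-40726096, plus strand), was at 48.5, 40.0 and 49.1 in WT RNP and 122, 82.5 and 143 in WT polysomes, and at 61.9, 51.1 and 56.0 and 185, 203 and 163 in KO. It was 2.52-fold higher in the polysome mean in WT and 3.27-fold in KO, with differences of 1.29 ± 0.23 and 1.69 ± 0.13 (limma, adjusted p = 0.00742 and 2.8e-05). The somatic paralogue *Slc25a4* (ANT1) did not pass in either genotype, with differences of 0.48 ± 0.19 and 0.25 ± 0.22, and *Slc25a5* passed in WT (0.77 ± 0.22; limma, adjusted p = 0.0453), a call lost with a pseudocount of 0.1, with no filter on low values, or without WT RNP 1, WT RNP 2, WT RNP 3, WT polysome 1 or WT polysome 2 (adjusted p = 0.0555 to 0.134).

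*Slc44a2* was higher in polysomes by 0.73 ± 0.17 in WT and 0.73 ± 0.11 in KO (limma, adjusted p = 0.0202 and 0.00117), with no overlap between the pools of a genotype, and the WT call was lost without WT RNP 1, WT RNP 2 or WT polysome 2 (adjusted p = 0.0557 to 0.0762). *Slc41a2*, a magnesium carrier, was at 8.03, 5.11 and 4.57 FPKM in WT RNP and 19.8, 19.6 and 23.9 in WT polysomes, and at 8.12, 6.91 and 9.49 and 14.6, 22.4 and 19.1 in KO. Its polysome means were 3.57 and 2.29 times the RNP means, with differences of 1.70 ± 0.34 and 1.09 ± 0.25 (limma, adjusted p = 0.0124 and 0.00962). The vesicular amine carrier *Slc18a2* was higher in WT polysomes by 1.61 ± 0.46 (limma, adjusted p = 0.0486), from 3.16, 1.10 and 3.46 FPKM in RNP to 10.9, 9.16 and 8.12 in polysomes without overlap. The call was lost with a pseudocount of 0.1, with no filter on low values, or without WT RNP 1, WT RNP 2, WT RNP 3, WT polysome 1, WT polysome 2 or WT polysome 3 (adjusted p = 0.0625 to 0.142).

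In the other direction, *Slc2a1* had the most negative difference of all members tested in each genotype. Its RNP means were 3.86 times the polysome means in WT and 5.05 times in KO, with differences of -1.94 ± 0.29 and -2.14 ± 0.24 (limma, adjusted p = 0.0032 and 0.000196). From the values given above, the lowest RNP library was higher than the highest polysome library in each genotype. *Slc25a32*, a mitochondrial folate and FAD carrier, was at 38.8, 30.6 and 33.9 in WT RNP, 22.0, 13.7 and 8.65 in WT polysomes, 19.4, 27.8 and 36.6 in KO RNP and 10.5, 17.5 and 6.73 in KO polysomes. The pools did not overlap, and the differences were -1.25 ± 0.34 and -1.25 ± 0.35 (limma, adjusted p = 0.0423 and 0.0239). The WT call was lost with a pseudocount of 0.1, with no filter on low values, or without WT RNP 1, WT RNP 2, WT RNP 3, WT polysome 2 or WT polysome 3 (adjusted p = 0.0515 to 0.142), and the KO call with no filter on low values, or without KO RNP 2, KO RNP 3, KO polysome 1 or KO polysome 3 (adjusted p = 0.0512 to 0.0929). *Slc16a1*, the other fuel carrier of the RNP comparison, did not differ past the threshold between pools, with -0.37 ± 0.40 in WT and 0.08 ± 0.28 in KO.

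In KO oocytes 26 further members passed between the pools. Among those higher in KO polysomes, *Slc25a3* was at 25.0, 20.1 and 18.9 FPKM in RNP and 57.9, 39.8 and 59.0 in polysomes, a difference of 1.24 ± 0.20 (limma, adjusted p = 0.0018). *Slc12a7*, the potassium-chloride cotransporter KCC4, was at 8.28, 9.48 and 6.96 and 12.4, 23.8 and 26.7, a difference of 1.19 ± 0.31 (limma, adjusted p = 0.0175). Neither gene overlapped between the pools, and the call of *Slc12a7* was lost without KO RNP 3, KO polysome 2 or KO polysome 3 (adjusted p = 0.0535 to 0.0612). *Slc38a10* is counted among them, but from the values given above it reached 5 FPKM only in the 3 KO polysome libraries and 1 KO RNP library. Its membership thus rests on its KO polysome values, and its difference of 1.23 is given without a test. *Slc38a8*, with the values given above, was higher in polysomes by 0.97 ± 0.27 (limma, adjusted p = 0.024). Its call was lost with no filter on low values, or without KO RNP 1, KO polysome 2 or KO polysome 3 (adjusted p = 0.055 to 0.0835). The hexose carrier *Slc2a10* was at 2.97, 0.0451 and 0 FPKM in RNP and 3.41, 6.63 and 4.74 in polysomes, ranges that nearly met, and its difference of 1.85 ± 0.56 (limma, adjusted p = 0.0351) was lost with a pseudocount of 0.1, with no filter on low values, or without KO RNP 2, KO RNP 3, KO polysome 2 or KO polysome 3 (adjusted p = 0.0575 to 0.117).

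Among the members higher in KO RNP, the sodium-proton antiporter *Slc9b1* was at 11.7, 14.8 and 12.2 FPKM in RNP and 3.41, 1.71 and 6.03 in polysomes, a difference of -1.66 ± 0.37 (limma, adjusted p = 0.00893). *Slc35e4*, a relative of the nucleotide sugar carriers, was at 57.8, 67.0 and 79.0 and 25.9, 38.2 and 40.2, a difference of -0.96 ± 0.20 (limma, adjusted p = 0.0066). Both calls held under every alternative run, and in both genes every RNP library was above every polysome library. The carnitine carrier *Slc22a5*, the hexose carrier *Slc2a12* and the amino acid carrier *Slc6a15* had differences of -1.27 ± 0.29, -1.16 ± 0.32 and -1.11 ± 0.29 (limma, adjusted p = 0.0107, 0.024 and 0.019). The call of *Slc22a5* was lost without KO RNP 3 (adjusted p = 0.0525), that of *Slc2a12* with no filter on low values, or without KO RNP 1, KO RNP 2 or KO RNP 3 (adjusted p = 0.0588 to 0.0764) and that of *Slc6a15* without KO RNP 2 or KO RNP 3 (adjusted p = 0.0662 to 0.0801). Passing in KO alone does not show a difference between genotypes, for which the interaction is the test.

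For 3 members the threshold fell in 1 pool alone. The proline carrier *Slc6a7* was at 1.11, 1.26 and 0.145 FPKM in WT RNP, 2.09, 13.3 and 2.67 in WT polysomes, 0.783, 1.90 and 1.67 in KO RNP and 8.83, 5.66 and 9.16 in KO polysomes. The amino and imino acid carrier *Slc6a20a* was at 4.16, 3.60 and 3.19 in WT RNP, 0.484, 1.85 and 3.51 in WT polysomes, 6.72, 7.04 and 7.37 in KO RNP and 3.51, 2.31 and 1.84 in KO polysomes. The third is *Slc25a30*, given above. The adjacent copy *Slc6a20b* was at means of 4.83, 3.07, 4.90 and 2.43 in the same order and did not pass in any comparison.

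**Figure D5:**
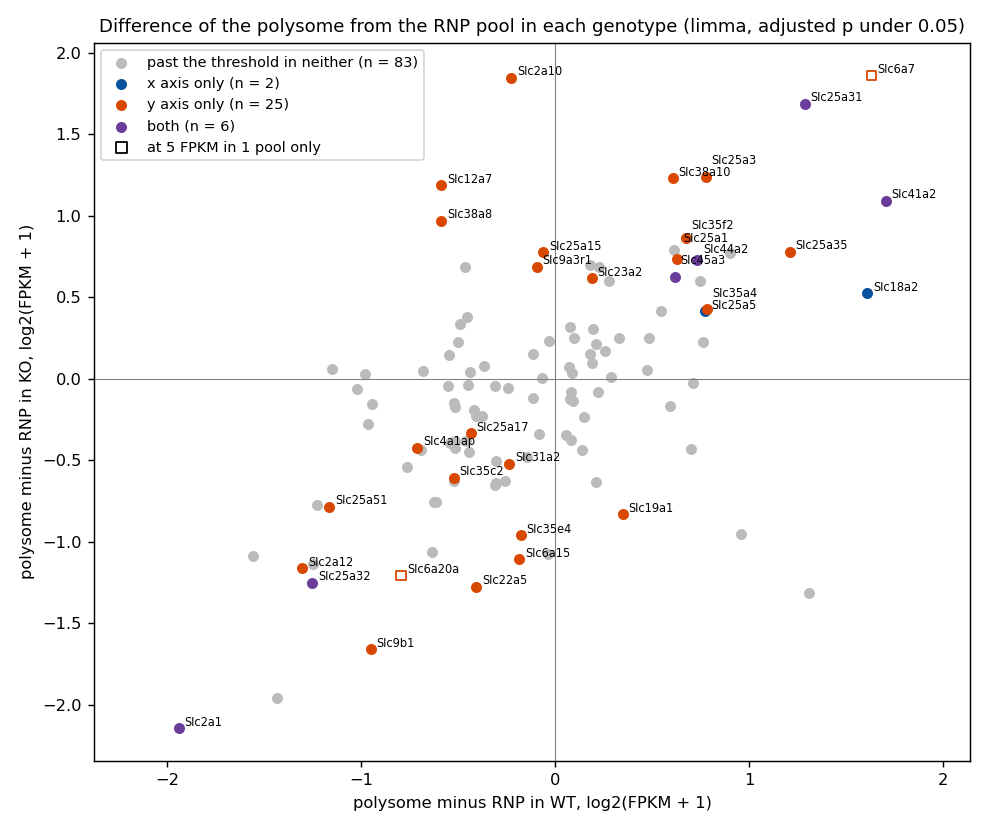
Difference of the polysome from the RNP pool in WT (x axis) and in KO (y axis) for the 116 members tested in both, on the log2(FPKM + 1) scale, coloured by where the adjusted p passed, with open squares for members at 5 FPKM in 1 pool only. *Slc2a1* lies at the lower left, *Slc25a31* and *Slc41a2* lie at the upper right, and 25 members passed in KO alone.

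The 2 genotypes share no library in these comparisons. Of 116 members tested in both, 83 (71.6%) had the same sign, and of all genes 73.7%.

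The change of the polysome-to-RNP ratio with genotype asks whether the share of a carrier mRNA in polysomes, relative to its share in RNP, differed in KO. As FPKM is relative to each pool, this ratio is not the fraction of an mRNA on polysomes. By limma, 0 of 119 members passed, as did 0.237% of all genes (26 of 10949; 0.0822% with a higher and 0.155% with a lower ratio in KO), and 11 members had an unadjusted p under 0.05, 9.24% against 11.1% of all genes. The lowest p was that of *Slc12a7* (chr13:73733094-73816754, plus strand), which exports potassium and chloride. Besides the KO values given above, it was at 12.7, 12.2 and 21.5 FPKM in WT RNP and 10.7, 7.71 and 10.7 in WT polysomes. All KO libraries were below WT in RNP and above WT in polysomes, and the ratio differed by 1.78 ± 0.46 (limma, unadjusted p = 0.00204, adjusted p = 0.15). Next were *Slc38a8* with 1.56 ± 0.50, the mitochondrial iron carrier *Slc25a28* with -2.62 ± 0.85, *Slc35f3* with -1.91 ± 0.67, *Slc25a48* with 0.73 ± 0.28 and the scaffold gene *Slc9a3r1* with 0.78 ± 0.31, at adjusted p by limma of 0.244 to 0.361. In polysomes *Slc25a28* had 7.63, 5.50 and 3.35 FPKM in the WT libraries and 0.115, 0 and 2.88 in the KO libraries, without overlap. The interaction had a median standard error of 0.52 over members, the widest of the 5 tests. On simulated data it found 2.5% of 200 genes given a log2 change of 1 and 44.5% of 200 given a change of 2. The lack of calls thus does not show that the ratio was unchanged.

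Passing in the same direction in both pools or in both genotypes favours a small interaction. The values of some such members are therefore given as a description. The interaction was -0.13 ± 0.42 for *Slc35b3*, -0.20 ± 0.38 for *Slc2a1* and 0.01 ± 0.10 for *Slc45a3*. *Slc39a10* had 0.48 ± 0.23 and *Slc25a15* 0.84 ± 0.34, neither past the threshold (limma, adjusted p = 0.451 and 0.361).

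Proteins that work with carriers, and some transporters named outside the pattern, were followed as a list of 30 genes. Among these transporters were the Slco genes and *Xpr1*. Of the list 29 genes were in the table and 19 to 23 were tested in each comparison. In RNP 4 of 20 tested were higher and 2 lower in KO, beside 20.7% of all genes past the threshold in either direction. In polysomes 2 of 19 tested were higher and 2 lower, beside 10.4% of all genes. The lower genes in each pool were *Vdac2* and the transporter *Slco4a1*. *Slco4a1* had differences of -0.93 ± 0.21 in RNP and -1.69 ± 0.46 in polysomes (limma, adjusted p = 0.0145 and 0.0495). *Vdac2*, a porin of the outer mitochondrial membrane, fell in both pools, from 66.9, 54.8 and 56.8 to 17.9, 16.2 and 26.8 FPKM in RNP and from 43.2, 43.7 and 49.7 to 13.9, 18.9 and 8.07 in polysomes, by 1.53 ± 0.21 and 1.74 ± 0.32 (limma, adjusted p = 0.00137 and 0.0124). *Vdac3*, another porin, rose in RNP by 0.61 ± 0.14, with *Mpc2*, a subunit of the mitochondrial pyruvate carrier, by 1.04 ± 0.22 and *Atp1b3*, a subunit of the sodium pump, by 0.73 ± 0.15 (limma, adjusted p = 0.0152, 0.00995 and 0.00952). *Ostm1*, a subunit of a lysosomal chloride-proton exchanger, rose from 0.192, 1.37 and 0.0545 to 5.88, 14.7 and 16.2 FPKM in RNP, by 3.10 ± 0.48, and by 2.93 ± 0.71 in polysomes (limma, adjusted p = 0.00246 and 0.0354). The KO libraries of *Vdac2* lay below and those of *Ostm1* above every WT library of the same pool. *Bsg* (basigin), which escorts MCT1 to the membrane, did not pass between genotypes, with 0.72 ± 0.26 in RNP and 0.30 ± 0.21 in polysomes.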

How the data were processed

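RNA of 12 libraries was measured, 3 each of RNP and polysome pools of WT and KO oocytes, amplified by Smart-seq2. The authors aligned reads to mm10 with TopHat2 (version 2.0.13) and made FPKM per gene symbol with Cufflinks (version 2.2.1), Cuffnorm and Cuffdiff. The deposited FPKM were used as they stand. Deposited log2 fold changes, p-values and q-values hold the authors' own comparisons and were not used.

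From the FPKM, limma (version 3.58.1, R 4.3.3) was fitted on log2(FPKM + 1) with a mean-dependent prior, over all genes at 1 FPKM or more in at least 3 libraries of the comparison, without a replicate term, and p was adjusted by Benjamini-Hochberg at 0.05. The pseudocount of 1 pulls the changes of low genes towards 0. The 4 contrasts used their own groups and the interaction used all 12 libraries. The script was tested on simulated data, where, in the polysome comparison of 9536 genes, it found 46% of 200 genes given a log2 change of 2 and 7% of 200 given a change of 1. Positions and exons came from the GENCODE M21 annotation of GRCm38. Depth was estimated from the spacing of low FPKM values, which was not clean enough to recover whole reads, so no count model was run. Python 3.11.15, pandas 2.3.3, numpy 2.4.6 and matplotlib 3.10.9 were used.

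Members, role groups and gene lists were chosen with earlier results of these data known. Genes were named by rule: the 10 members of highest mean FPKM, up to 8 called members per direction and test with the largest change and no overlap of groups, the 6 of lowest p in the interaction, members known from oocyte work, in each role group the 2 of highest mean and the 2 of lowest p in each KO comparison, the 3 members nearest the threshold on each side, and *Lsm14b*. Alternatives were a pseudocount of 0.1, no filter, libraries rescaled to the same median, a replicate block and leaving out each library. Values of 2 genes that this rule names are not reported here.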

Additional observations from a re-analysis of the deposited data

Results flagged for a closer look

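*Slc12a7*, the potassium-chloride cotransporter KCC4, stood out because its KO libraries all lay below the WT libraries in RNP and all above them in polysomes. It was at 12.7, 12.2 and 21.5 FPKM in WT RNP against 8.28, 9.48 and 6.96 in KO RNP, and at 10.7, 7.71 and 10.7 in WT polysomes against 12.4, 23.8 and 26.7 in KO polysomes. The difference between KO and WT was -0.80 ± 0.29 in RNP and 0.98 ± 0.37 in polysomes, and the change of the polysome-to-RNP ratio was 1.78 ± 0.46 on the log2(FPKM + 1) scale, higher in KO, with an adjusted p of 0.15 by limma over all genes. It was the lowest p of the members and did not pass the adjustment. The gene was picked for this pattern from the 119 members, and the share of all genes that show it was not counted.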

How the results depend on the processing

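Of 9 members past the threshold between KO and WT in polysomes, 4 were counted with no filter on low values, and 1 to 8 when single libraries were left out. The RNP count of 20 ran from 12 to 25 over the omitted libraries. The WT pool count of 8 was 5 with a pseudocount of 0.1 and 5 with no filter, and 4 to 9 over the omitted libraries, and the KO pool count of 32 ran from 13 to 38. No direction of a called member reversed, and the ratio gave 0 calls under every alternative run. With libraries rescaled to the same median the RNP count was 26, 17 higher and 9 lower in KO. Over all genes, the polysome count of 989 was 545 with no filter and as low as 383 with a library left out, the RNP count of 2057 as low as 1255, the WT pool count of 1406 as low as 780, the KO pool count of 2881 as low as 2030, and the ratio count of 26 ran from 0 to 46 over the alternatives. Omitting a library also left fewer residual degrees of freedom.

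Same-numbered libraries did not deviate together (r of -0.0207 to 0.0255), so the numbers were not taken as pairs. With a replicate block the counts were 6 in polysomes, 22 in RNP, 8 in the WT pools, 30 in the KO pools and 0 for the ratio. Depth was about 4620000 to 7840000 fragments per library, and members under 10 FPKM rest on the fewest fragments.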
